A study of Homo sapiens with 12 samples.

Results

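Genes whose response to estradiol differed between a line of ECC1 cells lacking MTDH and its parental line are described here. ECC1 is a human endometrial cancer cell line. A gene was a member if its difference of responses was called in the linear model, at a Benjamini-Hochberg adjusted p under 0.05. That difference is the estradiol response (estradiol minus untreated, log2) of the MTDH knockout (KO) line minus the same response of the parental line. Of 19670 genes tested, among 34595 entries of the array table, 148 were members, which is 0.752%. The difference was above 0 for 95 members (0.483% of genes tested) and below 0 for 53 (0.269%). Members were thus chosen by this difference, so its values and those of the response in each line are given as descriptions, with no p-value.

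RNA was measured on 12 Illumina whole-genome BeadArrays, 3 for each of 4 groups. The groups were MTDH KO cells given 10 nM estradiol for 24 h, untreated MTDH KO cells, parental ECC1 cells given the same estradiol dose, and untreated parental ECC1 cells. All 4 groups spent the 24 h before treatment in medium with 5% charcoal-stripped serum, and no vehicle is named for the untreated cells. The labels name 1 KO line and give no second clone, so loss of MTDH and any other difference of that line cannot be told apart. The labels do not tell whether the replicates of a group were grown apart, and the p-values therefore reflect array-to-array variation that could be technical. In RNA from whole cultures, fewer cells of a type and less RNA per cell cannot be told apart.

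Estradiol is known to bind the estrogen receptor encoded by ESR1, which acts as a transcription factor on DNA elements built from GGTCA repeats, and also through factors such as AP-1. In the endometrium it is known to drive growth of the epithelium and to raise secretory and cell-surface genes. MTDH (metadherin) is a membrane-associated protein known for its raised level in several cancers and for effects on NF-kappaB signalling and on RNA-binding complexes.

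Arrays of the model were those whose label and MTDH level went together, which are 10 arrays with 3 untreated and 2 estradiol arrays for each line. MTDH read 8.49 and 8.49 (log2) with estradiol and 8.57, 8.53 and 8.59 untreated in KO cells, against 10.83 and 10.96 with estradiol and 11.43, 11.18 and 10.78 untreated in parental cells. Since MTDH chose the arrays, these levels are no test of the knockout, and in KO cells they stayed above the floor used below, 7.07. The array labelled KO with estradiol, replicate 1, read MTDH at 10.94, and the array labelled parental with estradiol, replicate 3, read it at 8.97. Across genes, the array labelled KO with estradiol 1 correlated most with parental estradiol 2 (r = 0.9969), and that labelled parental with estradiol 3 most with KO estradiol 3 (r = 0.9967), where genes are not independent replicates. Both arrays were left out, and the reason for their levels was not tested. With all 12 arrays as labelled, 1 gene was called for the difference (0.00508% of genes tested), LOC730255, and 2069 had an unadjusted p under 0.05, against 2683 with 10 arrays. Of the 148 members, 136 kept the sign of their difference with 12 arrays. The median absolute difference of the members was 0.63 with 10 arrays and 0.49 with 12. Every result below rests on the 10 arrays unless the 12 arrays are named. Of 9 markers of endometrial epithelium, 8 lay above the floor, with KRT18 between 6.83 and 6.98. Of the markers of other cell types, 1 of 8 for fibroblasts, 1 of 4 for smooth muscle, 1 of 5 for endothelium and 0 of 5 for leukocytes lay above it.

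RefSeq promoter windows, the 250 bases before the annotated start in GRCh38.p14, were available for 59 of the members. Of the 16 members that were called with every one of the 10 arrays left out in turn, 9 had a window, of which 3 hold GGTCA, the core of an estrogen response element, and 6 do not. Shown are the 3 that hold it and, of the 6 others, that of TNFRSF14, so the 4 sequences do not stand for the share among the 9. In ALPPL2 (chr2:232406594-232406843, plus strand), RAB7B (chr1:206003396-206003645, minus strand) and CLIC3 (chr9:136996569-136996818, minus strand) the window holds GGTCA, and in TNFRSF14 (chr1:2556121-2556370, plus strand), the member with the largest difference, it does not. Capitals mark GGTCA on either strand, so that TGACC is the same element read on the other strand.
ALPPL2: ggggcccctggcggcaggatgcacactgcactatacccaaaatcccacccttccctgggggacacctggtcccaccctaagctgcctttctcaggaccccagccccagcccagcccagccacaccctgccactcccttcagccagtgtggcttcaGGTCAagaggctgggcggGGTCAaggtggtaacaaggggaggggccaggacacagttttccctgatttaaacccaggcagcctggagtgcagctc
RAB7B: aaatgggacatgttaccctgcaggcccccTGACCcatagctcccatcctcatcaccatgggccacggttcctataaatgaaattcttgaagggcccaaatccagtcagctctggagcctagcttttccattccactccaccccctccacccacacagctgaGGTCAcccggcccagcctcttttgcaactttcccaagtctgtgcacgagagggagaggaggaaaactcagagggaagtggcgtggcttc
CLIC3: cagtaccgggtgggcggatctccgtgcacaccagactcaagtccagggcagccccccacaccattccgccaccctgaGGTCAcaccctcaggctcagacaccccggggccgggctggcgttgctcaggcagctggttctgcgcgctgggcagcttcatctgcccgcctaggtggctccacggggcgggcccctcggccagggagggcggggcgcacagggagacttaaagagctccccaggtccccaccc
TNFRSF14: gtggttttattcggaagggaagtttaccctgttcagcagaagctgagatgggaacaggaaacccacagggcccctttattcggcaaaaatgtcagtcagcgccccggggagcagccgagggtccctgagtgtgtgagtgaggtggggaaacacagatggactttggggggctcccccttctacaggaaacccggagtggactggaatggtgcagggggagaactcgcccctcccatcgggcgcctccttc
ALPPL2 and RAB7B hold 2 such elements each and CLIC3 holds 1. On both strands, GGTCA was in 18 of the 59 member windows (30.5%), against 33.1% of 27305 windows of all genes. The full palindrome GGTCANNNTGACC, each end of which holds a GGTCA, was in 0 member windows, against 0.0439% of all windows. The AP-1 motif TGANTCA was in 5 member windows (8.47%), against 6.60% of all. These shares are descriptions of windows next to the start, and distant binding sites were not looked at.

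The members were sorted by which line responded more, in which direction, and whether values near the bottom of the scale limited the comparison. A response was lost where the KO response was under 25% of the parental one or of the other sign without being called, and weaker where it was 25% or more. It was stronger where the KO line led and the parental response was at least 25% of it, and gained where the parental response was less than that. The floor was 7.07, which is the median of all values plus 0.25. A fall was floor-limited where the estradiol mean of the line that moved less lay under it, and a rise where the untreated mean of the line that moved less lay under it while that of the other line did not. A rise with both untreated means under the floor, as in 6 members, was sorted by its share, and both of its responses may be understated. By these rules 69 responses were lost (43 falls and 26 rises of the parental line), 16 weaker (7 falls and 9 rises), 4 stronger, 32 gained (7 falls and 25 rises of the KO line), 14 opposite in direction, 12 floor-limited and 1 unsorted. Among the lost responses, 56 of 69 had a KO value of the opposite sign that was not called. Choosing members by a large difference and sorting them by a small KO share favours such values, so nothing is read from this count.

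**Figure D1:**
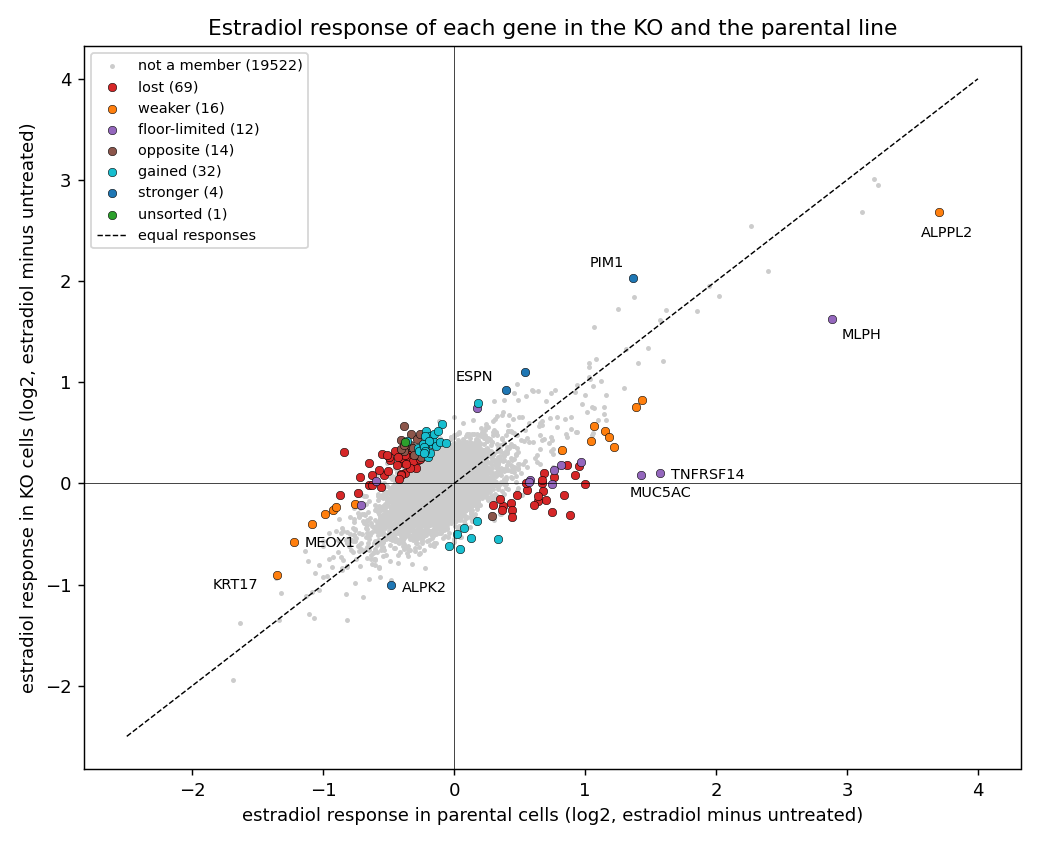
Estradiol response of each tested gene in KO cells (vertical axis, log2) against the response in parental cells (horizontal axis, log2), 10 arrays. Grey points are the 19522 genes that were not members, coloured points are the 148 members by class, and the dashed line marks equal responses; the lost rises lie to the right near 0 on the vertical axis and the lost falls to the left.

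The absolute difference of responses ran from 0.45 to 1.47 over the members, with a median of 0.63, and was 1 or more for 8. Just inside the threshold lay FTHL3, at 0.70 ± 0.16 (SE), and just outside it lay PPP3CA, at 0.47 ± 0.11. The parental line had the larger response for 100 of 148 members (67.6%), against 56.5% of all genes tested. Estradiol called 64 members in KO cells, where it called 6.80% of all genes, and 114 members in parental cells, where it called 10.7%; these contrasts were used in sorting and nothing is read from those counts. In both lines together 631 genes were called, of which 617 moved the same way and 14 moved opposite ways. With estradiol the lines lay further apart than without it for 62 members (41.9%), against 49.0% of all genes tested. These gaps use the same group means as the difference that chose the members, so nothing is read from this share either.

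MUC5AC, a gel-forming secreted mucin, read 7.02 and 6.91 with estradiol and 6.97, 6.80 and 6.89 untreated in KO cells, against 10.22 and 10.12 with estradiol and 8.85, 8.78 and 8.61 untreated in parental cells. All 5 KO arrays lay under the floor, and the parental arrays with estradiol lay above the untreated ones without overlap. The KO response of 0.08 ± 0.08 and the parental response of 1.42 ± 0.08 (2.68-fold) gave a difference of −1.34 ± 0.12. Since the gene was under the floor in untreated KO cells, part of a rise there could have gone unseen, and the class is floor-limited. The array labelled KO with estradiol 1 read it at 10.17 and that labelled parental with estradiol 3 at 6.98, and the difference with 12 arrays was 0.79 ± 1.18.

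MLPH, melanophilin, is known to link RAB27A on vesicles to a myosin motor. It read 8.72 and 8.61 with estradiol and 7.05, 7.05 and 7.03 untreated in KO cells, against 10.43 and 10.44 with estradiol and 7.504, 7.59 and 7.56 untreated in parental cells. Estradiol arrays stood above untreated arrays in both lines, by 3.08-fold in KO cells and 7.41-fold in parental cells. The difference was −1.26 ± 0.10, and because the untreated KO arrays lay at the floor the KO response may be understated. Its mean response over both lines, a contrast that the choice of members did not use, was 2.26 ± 0.05 (limma, adjusted p = 3.2e-15). With 12 arrays the difference was −0.18 ± 0.60.

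RAB7B, a small GTPase of endosome and Golgi traffic, read 6.89 and 6.76 with estradiol and 6.75, 6.85 and 6.88 untreated in KO cells, against 7.97 and 7.83 with estradiol and 7.11, 7.21 and 7.14 untreated in parental cells. Here too every KO array was under the floor, and the difference was −0.75 ± 0.11. With 12 arrays the RAB7B difference was −0.11 ± 0.37. FUT3, a fucosyltransferase that makes Lewis antigens, read 7.14 and 6.93 with estradiol and 6.81, 6.82 and 6.93 untreated in KO cells, against 8.87 and 8.89 with estradiol and 8.20, 8.09 and 7.91 untreated in parental cells. Its difference was −0.64 ± 0.13, and with 12 arrays it was 0.43 ± 0.60. The untreated KO arrays of FUT3 were all under the floor, so FUT3 was floor-limited and part of a KO rise could have gone unseen. FUT5, a relative of FUT3, had a difference of −0.58 ± 0.12. These 2 genes are near-identical over much of their sequence, so signal for one may include the other. CLIC3, a chloride intracellular channel protein, read 7.67 and 7.62 with estradiol and 7.84, 7.80 and 7.82 untreated in KO cells, against 9.90 and 9.82 with estradiol and 9.31, 9.31 and 9.03 untreated in parental cells. Its values were above the floor in both lines, so its lost rise, a difference of −0.81 ± 0.12, was not floor-limited. With 12 arrays that difference was 0.72 ± 0.85.

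Secreted proteins among the weaker rises included CFD and NPPC. CFD, complement factor D, read 9.64 and 9.52 with estradiol and 9.13, 8.996 and 9.06 untreated in KO cells, against 10.87 and 10.81 with estradiol and 9.69, 9.69 and 9.69 untreated in parental cells. Both lines rose, and the KO response was 44.9% of the parental one. With 12 arrays the responses were 0.94 in KO cells and 0.71 in parental cells, a difference of 0.23 ± 0.48. NPPC, the precursor of C-type natriuretic peptide, responded by 0.75 ± 0.08 in KO cells and 1.39 ± 0.08 in parental cells. Its untreated means, 6.77 in KO cells and 6.68 in parental cells, were both under the floor, so these are differences of measured signal and may understate either rise. PLXDC2, a transmembrane protein with a plexin domain, responded by 0.46 ± 0.11 in KO cells and 1.18 ± 0.11 in parental cells. SCGB2A1, mammaglobin B, a secretoglobin of glandular epithelium, ran the other way. It read 9.68 and 9.69 with estradiol and 9.48, 9.35 and 9.44 untreated in KO cells, against 10.96 and 10.88 with estradiol and 11.43, 11.38 and 11.23 untreated in parental cells. The gene was lower in KO cells on every array, and its parental response of −0.43 had no counterpart in KO cells, at 0.26.

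**Figure D2:**
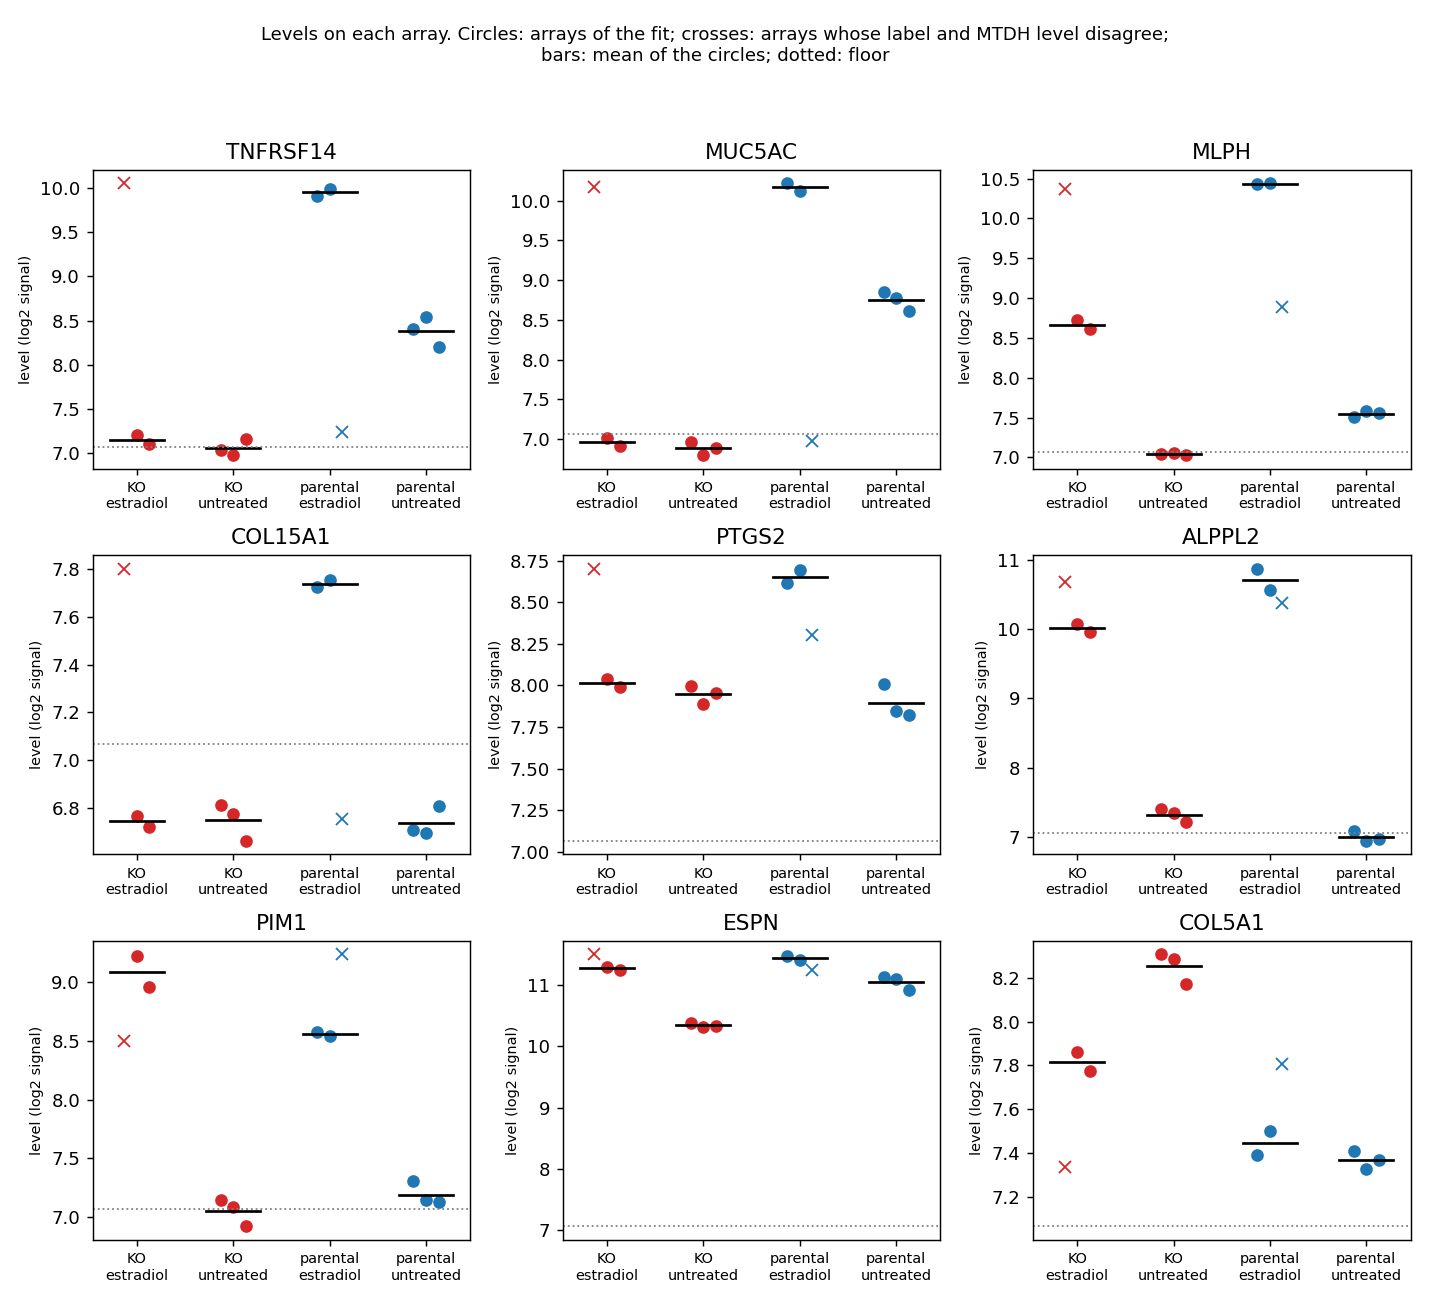
Level (log2 signal) of 9 members on each of the 12 arrays, with KO groups left of parental groups and estradiol left of untreated. Circles are the 10 arrays of the model with their mean as a bar, crosses are the 2 arrays whose label and MTDH level disagreed, and the dotted line is the floor of 7.07; the cross labelled KO with estradiol reads 10.05 for TNFRSF14 and 10.17 for MUC5AC, close to the parental circles with estradiol.

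TNFRSF14 and PTGS2 are genes of immune and inflammatory signalling. TNFRSF14, a receptor of the TNF receptor superfamily also called HVEM, read 7.21 and 7.10 with estradiol and 7.03, 6.98 and 7.16 untreated in KO cells, against 9.91 and 9.99 with estradiol and 8.40, 8.54 and 8.20 untreated in parental cells. KO arrays stayed at the floor in either condition, while every parental array was above them. The KO response was 0.10 ± 0.09 and the parental response 1.57 ± 0.09 (2.97-fold), a difference of −1.47 ± 0.13, the largest of the 148. The 2 arrays left out read 10.05 (labelled KO) and 7.24 (labelled parental), and with 12 arrays the difference was 0.40 ± 1.03. Of 20 tested genes of the TNF superfamily list, 3 fell in KO cells, where 2.54% of all genes rose and 4.26% fell, and 1 rose and 3 fell in parental cells, where the shares were 1.61% and 9.14%. TNFRSF14 was the riser.

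PTGS2, the inducible cyclooxygenase of prostaglandin synthesis, read 8.04 and 7.99 with estradiol and 7.99, 7.89 and 7.95 untreated in KO cells, against 8.62 and 8.69 with estradiol and 8.01, 7.85 and 7.82 untreated in parental cells. The untreated values of the lines overlapped, and the parental arrays with estradiol stood above all others. The difference was −0.69 ± 0.11, and with 12 arrays it was −0.35 ± 0.22. Of 16 tested genes of the prostaglandin list, 1 rose in KO cells (2.54% of all genes rose there), and 3 rose and 2 fell in parental cells (1.61% and 9.14% of all genes). SLCO2A1, the prostaglandin transporter, rose in both lines, by 3.00 ± 0.09 in KO cells and 3.20 ± 0.09 in parental cells, and its difference of −0.20 ± 0.13 was not called (limma, adjusted p = 0.56).

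Receptors and signalling proteins with a lost rise included GPER (current symbol GPER1), a G protein-coupled receptor known as a membrane estrogen receptor. It read 7.85 and 7.73 with estradiol and 7.80, 7.75 and 7.82 untreated in KO cells, against 8.30 and 8.20 with estradiol and 7.55, 7.59 and 7.60 untreated in parental cells. The KO arrays did not separate by treatment, and the difference was −0.67 ± 0.10. CAPS, calcyphosine, a calcium-binding protein, read 7.27 and 7.26 with estradiol and 7.17, 6.997 and 7.12 untreated in KO cells, against 9.14 and 9.24 with estradiol and 8.29, 8.19 and 8.24 untreated in parental cells. The untreated KO arrays of CAPS lay close to the floor, and the array at 6.997 lay under it. CAPS was sorted as lost by the rules above, but part of a rise in KO cells could have gone unseen. RTN4R, the Nogo receptor, had a response of 0.18 in KO cells and 0.86 in parental cells. With 12 arrays the difference was 0.41 ± 0.66 for CAPS and 0.061 ± 0.41 for RTN4R. GPER, CLIC3, CAPS, RTN4R, SCGB2A1, FUT5 and FBLN2 fell outside the naming rule and were chosen after their values were seen. SLCO2A1, ALPP, CA12, TGFA, THBS1, G0S2 and IGFBP3, which were not members, also fell outside the rule. They are examples and do not stand for their lists.

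ESR1 itself was not a member. It read 9.62 and 9.70 with estradiol and 9.86, 9.83 and 10.01 untreated in KO cells, against 9.497 and 9.43 with estradiol and 10.21, 10.26 and 10.06 untreated in parental cells. In parental cells it fell by 0.72 on the log2 scale with estradiol (SE 0.08, limma, adjusted p = 1.7e-05). The KO response of −0.24 ± 0.08 was not called (adjusted p = 0.086), and neither was the difference of 0.47 ± 0.11 (adjusted p = 0.067). Leaving out parental untreated replicate 3 brought that difference under the threshold. Averaged over conditions with weights of 3 untreated to 2 estradiol arrays, ESR1 differed between the lines by −0.09 ± 0.06 (adjusted p = 0.30).

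Matrix and adhesion genes were found among the lost rises and among the gained falls. COL15A1, a collagen of basement membrane zones, read 6.77 and 6.72 with estradiol and 6.81, 6.78 and 6.66 untreated in KO cells, against 7.72 and 7.75 with estradiol and 6.71, 6.70 and 6.81 untreated in parental cells. Every array other than the parental estradiol ones was under the floor, so it rose above the floor with estradiol in parental cells and stayed under it in KO cells. The difference was −1.01 ± 0.10, and with 12 arrays it was −0.33 ± 0.38. SDK2, a sidekick cell adhesion molecule, showed the same order, at 6.99 and 6.98 with estradiol and 6.85, 6.94 and 6.91 untreated in KO cells, against 7.72 and 7.85 with estradiol and 6.69, 6.99 and 6.91 untreated in parental cells. The untreated SDK2 means of both lines were under the floor as well. FBLN2, a fibulin of the extracellular matrix, had a response of −0.26 in KO cells and 0.45 in parental cells.

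COL5A1, a chain of fibrillar type V collagen, read 7.86 and 7.77 with estradiol and 8.31, 8.29 and 8.17 untreated in KO cells, against 7.39 and 7.501 with estradiol and 7.41, 7.33 and 7.37 untreated in parental cells. It was higher in KO cells on every array and lower with estradiol there, with a difference of −0.52 ± 0.10. COL4A5, a basement membrane collagen chain, had a KO response of −0.54 ± 0.09 and a parental response of 0.13 ± 0.09. ITGAV, the integrin alpha V subunit, had −0.62 ± 0.09 in KO cells and −0.04 ± 0.09 in parental cells. FLRT3, an adhesion protein of the FLRT family, read 8.22 and 8.08 with estradiol and 8.79, 8.69 and 8.91 untreated in KO cells, against 7.88 and 7.85 with estradiol and 7.96, 7.71 and 7.81 untreated in parental cells. FRAS1, an extracellular matrix protein of epithelial basement membranes, had −0.50 ± 0.08 in KO cells and 0.03 ± 0.08 in parental cells. In each of these 5 genes the KO arrays separated by treatment and the parental arrays overlapped. Of 22 tested collagens, 7 fell in KO cells, where 2.54% of all genes rose and 4.26% fell, while 4 rose and 1 fell in parental cells, where the shares were 1.61% and 9.14%. Their median difference was −0.19, against 0.05 for all genes tested.

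Among enzymes and transporters, ALPPL2 (current symbol ALPG), a placental-like alkaline phosphatase, had the largest rises of any member. It read 10.07 and 9.96 with estradiol and 7.41, 7.35 and 7.22 untreated in KO cells, against 10.87 and 10.56 with estradiol and 7.10, 6.95 and 6.97 untreated in parental cells. The KO arrays were above the parental arrays without estradiol and below them with it. Estradiol raised it 6.43-fold in KO cells and 13.03-fold in parental cells. These are ratios of measured signal, and since the untreated parental mean of 7.01 was under the floor, the parental rise may be understated. Its mean response over the lines was 3.19 ± 0.07. The close paralog ALPP, whose probe may share sequence with it, had a difference of −0.21, which was not called (adjusted p = 0.69). PPAP2B (current symbol PLPP3), a lipid phosphate phosphatase, read 8.58 and 8.36 with estradiol and 8.06, 8.10 and 8.16 untreated in KO cells, against 9.13 and 9.21 with estradiol and 8.10, 7.94 and 7.82 untreated in parental cells. SLC6A6, the taurine transporter, had a difference of −0.76 ± 0.10 and was floor-limited, with untreated KO values of 6.93, 6.93 and 6.87. Its untreated parental mean of 7.073 was barely above the floor of 7.067, so the class rests on a narrow margin. With 12 arrays the SLC6A6 difference was −0.19 ± 0.33.

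ENTPD2, an ectonucleotidase that breaks down extracellular ATP, was the one named gene with called responses in opposite directions. It read 6.96 and 6.84 with estradiol and 7.31, 7.17 and 7.20 untreated in KO cells, against 8.85 and 8.90 with estradiol and 8.73, 8.62 and 8.41 untreated in parental cells. KO values crossed the floor, and the lines stood apart by −1.61 ± 0.06 on average over conditions, weighted as for ESR1 (limma, adjusted p = 3.9e-12). With 12 arrays both ENTPD2 responses changed sign, to 0.33 in KO cells and −0.30 in parental cells, and the difference was 0.63 ± 0.69. ADORA1, an adenosine receptor, read 8.18 and 8.17 with estradiol and 8.60, 8.52 and 8.53 untreated in KO cells, against 9.16 and 8.997 with estradiol and 8.92, 8.96 and 8.83 untreated in parental cells. Its difference was −0.55 ± 0.11, and with 12 arrays it was 0.04 ± 0.34.

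Genes that estradiol lowered less in KO cells included known estrogen-repressed genes and regulators of growth. MEOX1, a homeobox transcription factor, read 8.69 and 8.43 with estradiol and 9.18, 9.13 and 9.10 untreated in KO cells, against 8.61 and 8.67 with estradiol and 9.86, 9.87 and 9.86 untreated in parental cells. The lines overlapped with estradiol and were apart without it, and the KO response was 47.2% of the parental one. KRT17, a keratin of basal and stressed epithelium, read 7.42 and 7.34 with estradiol and 8.26, 8.29 and 8.32 untreated in KO cells, against 8.02 and 7.99 with estradiol and 9.37, 9.37 and 9.33 untreated in parental cells. It fell in both lines, with responses of −0.90 ± 0.07 in KO cells and −1.35 ± 0.07 in parental cells, and the difference was 0.45 ± 0.10, which was not called after quantile normalization.

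DDIT4, a stress-induced inhibitor of mTORC1 also called REDD1, read 12.14 and 12.06 with estradiol and 12.53, 12.32 and 12.37 untreated in KO cells, against 11.23 and 11.31 with estradiol and 12.25, 12.44 and 12.08 untreated in parental cells. Untreated arrays of both lines overlapped, and with estradiol the KO line stayed higher. The DDIT4 difference was 0.68 ± 0.13, and with 12 arrays it was 0.12 ± 0.33. TAGLN2, an actin-binding protein, had a response of −0.24 ± 0.09 in KO cells and −0.90 ± 0.09 in parental cells, and TMTC1, a protein O-mannosyltransferase of the endoplasmic reticulum, had −0.40 ± 0.09 in KO cells and −1.09 ± 0.09 in parental cells. The TMTC1 mean in KO cells with estradiol, 7.27, was close to the floor, so its KO fall may be understated. With 12 arrays the TMTC1 difference was 1.15 ± 0.28. NDST1, which sulfates heparan sulfate, had −0.11 ± 0.11 in KO cells and −0.87 ± 0.11 in parental cells. LEFTY1, a secreted inhibitor of nodal signalling, read 6.85 and 6.85 with estradiol and 6.83, 6.85 and 6.80 untreated in KO cells, against 7.45 and 7.35 with estradiol and 8.25, 7.87 and 7.86 untreated in parental cells. All KO arrays were under the floor, so little of a fall could have been seen there. CRYAB, a small heat shock protein gene, read 6.80 and 6.64 with estradiol and 6.88, 6.95 and 6.97 untreated in KO cells, all under the floor, and its KO response of −0.21 ± 0.07 may understate a fall. Both genes are floor-limited.

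In 4 members KO cells gave a stronger response in the direction of the parental line. PIM1, a serine/threonine kinase that promotes survival, read 9.22 and 8.96 with estradiol and 7.15, 7.09 and 6.92 untreated in KO cells, against 8.57 and 8.54 with estradiol and 7.30, 7.14 and 7.13 untreated in parental cells. The rise was 4.10-fold in KO cells and 2.58-fold in parental cells, a difference of 0.67 ± 0.13. With 12 arrays the PIM1 difference was 0.25 ± 0.26. The untreated KO mean of PIM1, 7.05, was just under the floor, so the KO ratio is one of measured signal and may be understated. ESPN, espin, which bundles actin, read 11.30 and 11.25 with estradiol and 10.38, 10.32 and 10.34 untreated in KO cells, against 11.48 and 11.41 with estradiol and 11.13, 11.10 and 10.92 untreated in parental cells. Most of its gap between the lines was without estradiol. KCNF1, a potassium channel subunit, had a response of 1.11 ± 0.09 in KO cells and 0.54 ± 0.09 in parental cells. ALPK2, an alpha-kinase, fell with estradiol and read 7.68 and 7.57 with estradiol and 8.51, 8.66 and 8.70 untreated in KO cells, against 7.04 and 7.21 with estradiol and 7.60, 7.58 and 7.63 untreated in parental cells. The ALPK2 mean in parental cells with estradiol, 7.12, was just above the floor. The parental fall may therefore be understated, and the KO fall need not be stronger. With 12 arrays the ALPK2 difference was −0.85 ± 0.21. RASGRP1, a floor-limited rise of the KO line, was named because it was the one member of its kind. With 12 arrays its difference of 0.57 was −0.01.

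Rises gained in KO cells were smaller. PEG10, an imprinted gene derived from a retrotransposon, read 9.66 and 9.42 with estradiol and 8.84, 8.70 and 8.68 untreated in KO cells, against 9.18 and 9.23 with estradiol and 9.03, 9.15 and 8.89 untreated in parental cells. Its KO response was 0.80 ± 0.09 and its parental response 0.18 ± 0.09. PLK1, a mitotic kinase, read 9.24 and 9.22 with estradiol and 8.86, 8.83 and 8.88 untreated in KO cells, against 8.84 and 8.75 with estradiol and 8.94, 9.05 and 8.79 untreated in parental cells. FBL, the methyltransferase of box C/D small nucleolar RNPs, had a KO response of 0.39 ± 0.08 and a parental one of −0.17 ± 0.08. NBL1, a secreted BMP antagonist, had 0.42 ± 0.10 in KO cells and −0.19 ± 0.10 in parental cells, and TGFBR3, a TGF-beta co-receptor, had 0.32 ± 0.08 in KO cells and −0.22 ± 0.08 in parental cells. The NBL1 difference was 0.61 ± 0.14, and with 12 arrays it was 0.04 ± 0.34. That of TGFBR3 was 0.54 ± 0.12, and with 12 arrays 0.38 ± 0.15. FCF1, a nucleolar protein of ribosome assembly and a lost fall, had the largest difference above 0 at 1.15 ± 0.23, but its KO arrays with estradiol read 7.88 and 6.995 and so disagreed. Leaving out each array in turn moved that value between 0.70 and 1.59.

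**Figure D3:**
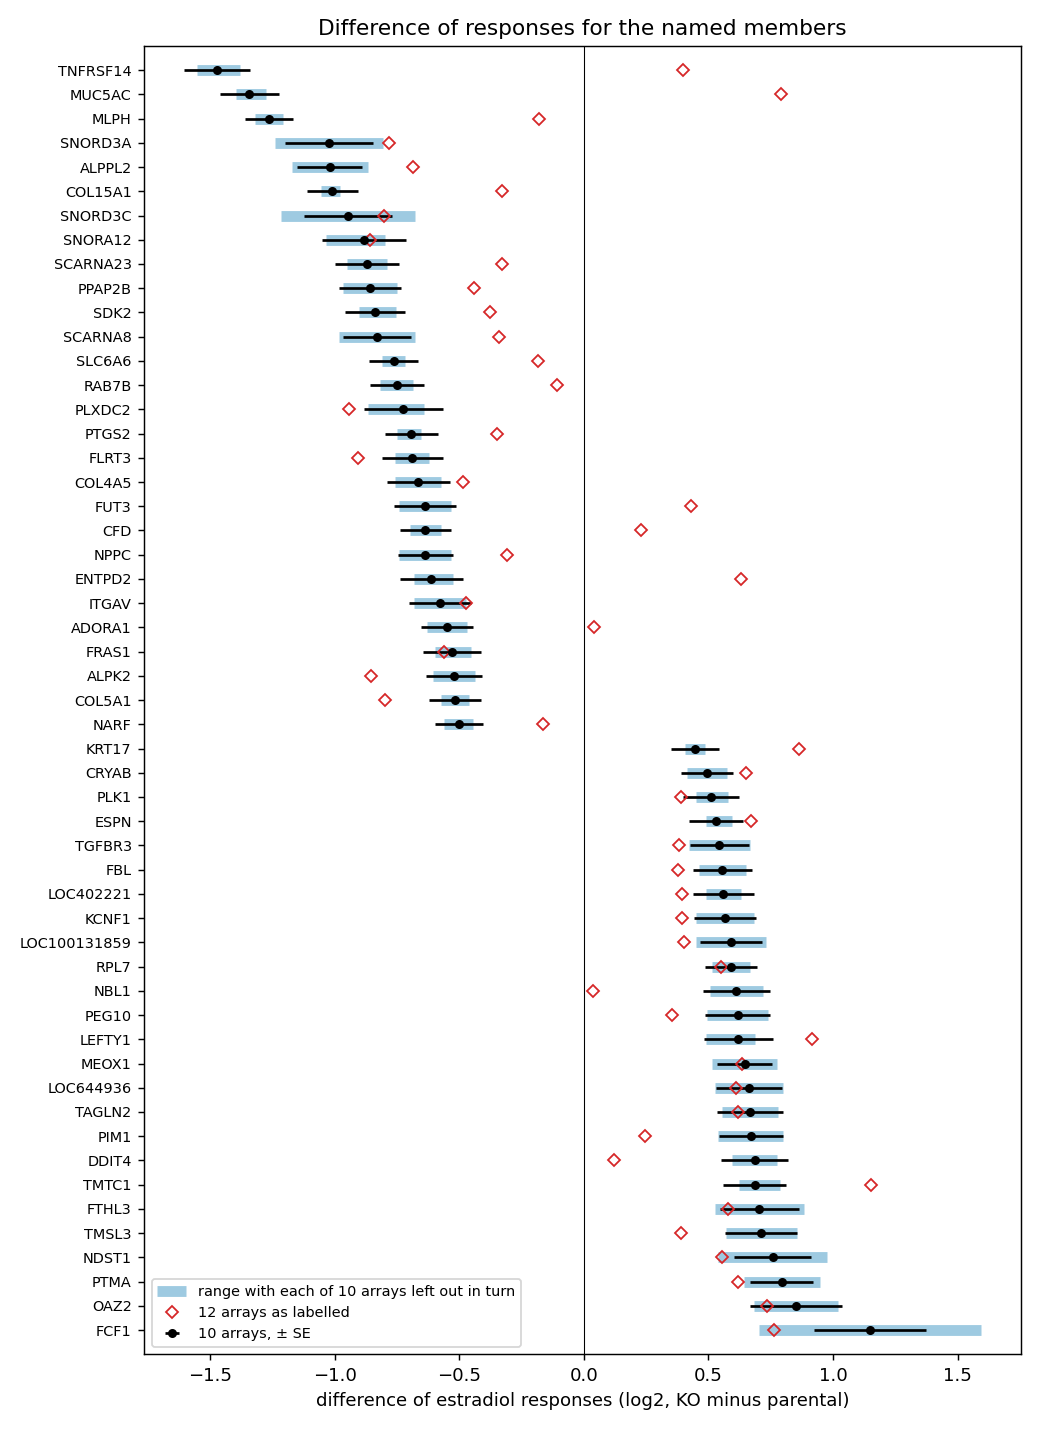
Difference of estradiol responses, KO minus parental (log2, horizontal axis), for the named members. Black points with bars are the value and its SE on 10 arrays, blue bands are the range with each of the 10 arrays left out in turn, and red diamonds are the values with 12 arrays as labelled; TNFRSF14 runs from −1.47 on 10 arrays to 0.40 on 12.

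Small RNA genes, a class that includes small nucleolar and spliceosomal RNAs, gave 8 members of 282 tested (2.84%), and all 8 differences were below 0. The lost rises were SNORD3A, SNORD3C, SCARNA23, SCARNA8, SCARNA11, RNU4-1 and SNORA6, and SNORA12 was a gained fall. SNORD3A, a U3 small nucleolar RNA, read 9.48 and 9.68 with estradiol and 9.65, 9.95 and 9.99 untreated in KO cells, against 9.64 and 10.07 with estradiol and 9.27, 9.05 and 9.004 untreated in parental cells. Its difference was −1.02 ± 0.18. SCARNA23 read 7.39 and 7.32 with estradiol and 7.41, 7.64 and 7.52 untreated in KO cells, against 8.08 and 8.24 with estradiol and 7.62, 7.37 and 7.38 untreated in parental cells. SNORA12 read 10.94 and 10.91 with estradiol and 11.54, 11.59 and 11.29 untreated in KO cells, against 10.96 and 11.13 with estradiol and 11.01, 10.55 and 10.58 untreated in parental cells. Total RNA was labelled, and how the array signal of such short RNAs arises was not tested. SNORD3A and SNORD3C are near-identical copies, and the array may not tell them apart. Leaving arrays out in turn moved SNORD3A between −1.24 and −0.81.

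A further 47 members were LOC entries with no match in the RefSeq gene table, out of 3568 such entries tested (1.32%). All 47 had a difference above 0, between 0.45 and 0.95 with a median of 0.65. Their median level over the groups was 9.96, against 7.41 for all genes tested. They held 19 lost falls, 14 gained rises, 13 of the 14 opposite responses and the unsorted one. Pseudogenes gave 9 members of 363 tested (2.48%), all above 0, and protein-coding genes 73 of 12205 (0.598%), of which 33 were above 0 and 40 below. Members from families with many processed copies, such as FTHL3 (FTH1P3), TMSL3 (TMSB4XP8), RPL7 and PTMA, may share signal with other copies, so which copy changed is uncertain. PTMA, prothymosin alpha, read 10.83 and 10.53 with estradiol and 10.40, 10.39 and 10.39 untreated in KO cells, against 10.40 and 10.22 with estradiol and 10.92, 10.75 and 10.79 untreated in parental cells. On the medians of the 47 entries, taken as deviations from each entry's own mean, KO cells had 0.20 and 0.03 with estradiol and −0.16, −0.23 and −0.24 untreated, against −0.09 and −0.13 with estradiol and 0.23, 0.24 and 0.15 untreated in parental cells.

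**Figure D4:**
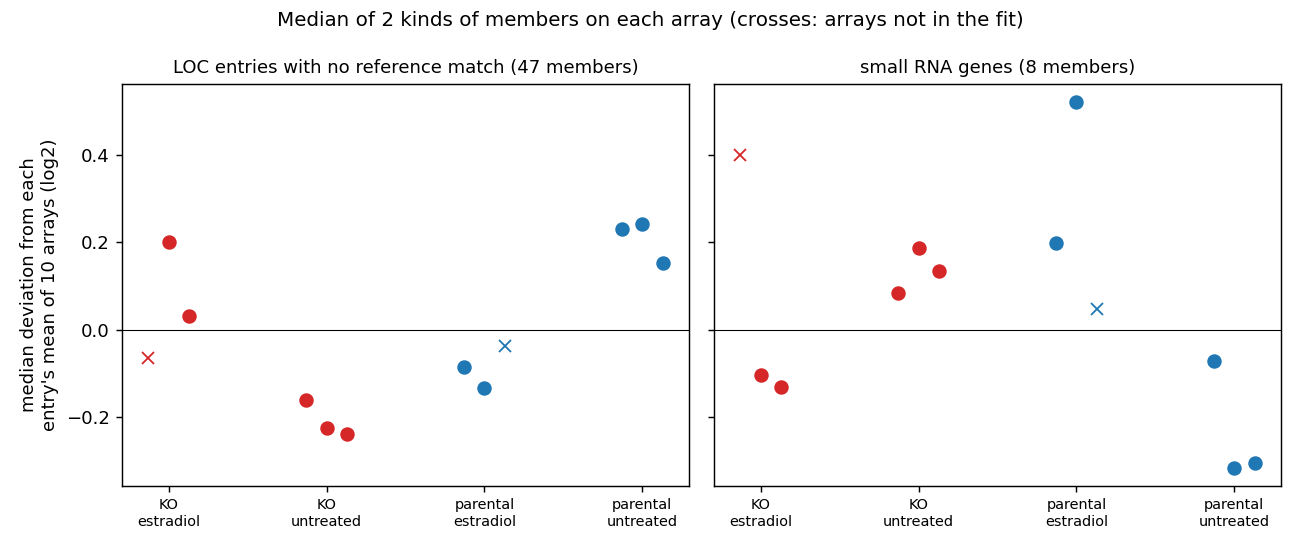
Median deviation (log2) from each entry's own mean over 10 arrays, by array and group, for the 47 unmatched LOC members (left) and the 8 small RNA members (right). The LOC members are high in untreated parental cells and low in untreated KO cells, the small RNA members run the other way, and crosses mark the 2 arrays outside the model.

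The sign balance of the members moved with the scale. Members above 0 were 64.2% of the 148 on the deposited values, 34.6% of 237 called genes after quantile normalization (82 genes) and 72.8% of 239 after centring each array on its median (174 genes). The median difference of all genes was 0.05 on the deposited values, 0.01 after quantile normalization and 0.04 after centring. All 148 members kept their sign under both, and 122 were called after quantile normalization. The named members that were not called after it were LEFTY1, FBL, OAZ2, LOC402221 and KRT17. By class, 26 of 26 lost rises, 30 of 43 lost falls, 16 of 25 gained rises and 5 of 7 weaker falls were called after it.

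Leaving out each of the 10 arrays in turn kept the sign of all 148 differences, and 16 members were called every time (0.0813% of genes tested). Of these, 12 were protein-coding genes, TNFRSF14, MUC5AC, MLPH, SLC6A6, RAB7B, COL15A1, SDK2, CLIC3, CAPS, GPER, ALPPL2 and PPAP2B, each with a difference below 0. The other 4 were LOC entries, LOC441377, LOC730255, LOC347376 and LOC642989, each above 0.

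On the 2 arrays that the model did not use, the members were placed by the midpoint between the estradiol means of the lines. The array labelled KO with estradiol 1 lay on the parental side for 123 of 148 members (83.1%), against 61.8% of all genes tested. The array labelled parental with estradiol 3 lay on the KO side for 104 members (70.3%), against 60.1% of all genes. The estradiol means that set the midpoint were also used in choosing the members. These shares are therefore descriptions and are not read as support for the members.

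Contrasts that the choice did not use can be tested, although they share the residual spread with it. The mean estradiol response over both lines was called for 66 members, 41 above 0 and 25 below (44.6%), against 14.4% of all genes tested, of which 2.56% were above 0 and 11.8% below. The mean line difference was called for 92 members, 18 higher and 74 lower in KO cells (62.2%), against 22.2% of all genes, of which 8.38% were higher and 13.8% lower. Members were chosen partly for a small spread, which also favours calls here, so these shares are not read as a property of the members.

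Known estrogen-responsive genes were looked at as lists. Since 0.752% of all genes tested were members, few would be expected in lists of this size, and non-membership is not read as a result. Of 29 tested genes known to be induced in breast cells, 11 rose and 3 fell in KO cells, 13 rose and 4 fell in parental cells, and by limma 0 had a called difference, with 5 at an unadjusted p under 0.05. Their median difference was 0.04, and after quantile normalization it was −0.02. Over all genes, 2.54% rose and 4.26% fell in KO cells, 1.61% rose and 9.14% fell in parental cells, 0.752% had a called difference and the median difference was 0.05, against which this and the next lists are to be read. CA12, a carbonic anhydrase, rose by 1.23 ± 0.09 in KO cells and 1.09 ± 0.09 in parental cells, and TGFA, an EGF receptor ligand, by 1.34 ± 0.10 in KO cells and 1.48 ± 0.10 in parental cells. Of 15 tested genes of an endometrial response list, 9 rose and 1 fell in KO cells, 10 rose and 1 fell in parental cells, and 2 had a called difference, MLPH and ALPPL2, with a median of −0.20 (−0.30 after quantile normalization). THBS1, thrombospondin, rose by 2.69 ± 0.08 in KO cells and 3.11 ± 0.08 in parental cells, and its difference of −0.43 ± 0.11 was not called (limma, adjusted p = 0.095), though it was after quantile normalization. G0S2, a regulator of lipolysis, rose by 1.95 ± 0.08 in KO cells and 1.95 ± 0.08 in parental cells, a difference of 0.01 ± 0.12. Of 16 tested estrogen-repressed genes, 12 fell in KO cells, 10 fell in parental cells, and 2 had a called difference, MEOX1 and KRT17, with a median of 0.12. After quantile normalization MEOX1 was called above 0, KRT17 was not called, SMAD6 was called below 0, and the median was 0.02. IGFBP3, a carrier of insulin-like growth factors, was lowered in both lines and fell by 1.95 on the log2 scale in KO cells and by 1.69 in parental cells. Differences that were not called are not shown to be equal.

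Lists around the leading members gave few further calls, and the shares of all genes given for the estrogen lists apply to them too (2.54% rose and 4.26% fell in KO cells, 1.61% rose and 9.14% fell in parental cells, and 0.752% had a called difference). Of 11 tested mucin and secretory genes, 2 fell in KO cells, 2 rose and 4 fell in parental cells, and MUC5AC had the 1 called difference. Of 14 tested genes of the melanophilin and RAB27 machinery, 1 rose in KO cells, 1 rose and 1 fell in parental cells, and MLPH was the riser in both and the 1 with a called difference. Of 40 tested mitosis genes, 3 rose and 1 fell in KO cells, while 20 fell in parental cells, and PLK1 had the 1 called difference. Their median difference was 0.23, and after quantile normalization it was 0.11, with 8 falls in parental cells. Of 54 tested ribosomal protein genes, 5 rose in KO cells, 2 rose and 4 fell in parental cells, and RPL7 had the 1 called difference. By limma 23 of the 54 differences had an unadjusted p under 0.05, and 7 did after quantile normalization. Their median difference of 0.26 was 0.06 after quantile normalization. Of 11 tested keratins, 4 fell in KO cells, 6 fell in parental cells, and KRT17 had the 1 called difference. After quantile normalization 0 keratins had a called difference by limma, with 3 at an unadjusted p under 0.05, and their median difference of 0.10 was 0.02.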

How the data were processed

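The deposited values are log2 signals of 12 Illumina BeadArrays, with 34595 entries (symbols or other identifiers), 1 value each per array and 0 missing, and biotin-labelled total RNA was hybridized per the labels' protocols. Background correction, normalization and the combination of probes are not given in the sources used here. Array medians lay within 6.78 and 6.86, but upper quartiles ran from 7.57 to 7.77. In parental cells these quartiles were 7.77, 7.76 and 7.69 untreated and 7.63 and 7.62 with estradiol. In KO cells they were 7.71, 7.66 and 7.70 untreated and 7.68 and 7.57 with estradiol. Differences of genes with high signal may therefore depend on the scaling. The number of arrays limits the precision.

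A gene was tested if 3 or more of the 12 arrays exceeded 6.817, the overall median. One mean per group was fitted with limma 3.58.1 in R 4.3.3 to the 10 arrays whose label and MTDH level agreed (parental above 10, KO below 9.5), with 6 residual degrees of freedom and 8 for 12 arrays. The mean line difference weighted conditions by their arrays (3 untreated to 2 estradiol). P-values were two-sided, with Benjamini-Hochberg adjustment over all 19670 genes and a threshold of 0.05. The members, classes and gene lists were chosen with earlier results of these data known. Named genes were MTDH, ESR1, the 5 marker genes, the 6 members with the largest difference per class and direction, and up to 4 members per list, where the entry had a RefSeq symbol. Of 148 members, 80 names were current symbols, 10 older, 1 ambiguous and 57 unmatched (38.5%, against 33.6% of genes tested). Alternatives were other filters, scaling, priors, array weights, a block on replicate number, a stricter threshold, 12 arrays and leaving out each array. On simulated data with 200 changed genes, the fit of 10 arrays recovered 68% of differences of 1.5-fold and 93% of 2-fold. There were 5 false calls among the unchanged genes, of 19670 in all. The simulated noise was drawn separately for each gene and array, with no shift shared across an array. These rates therefore need not hold for the real arrays.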

Additional observations from a re-analysis of the deposited data

Results flagged for a closer look

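The estradiol responses of KO and parental cells differed for 148 genes by a test of the difference itself, the interaction of line and treatment, on 10 arrays.

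The 2 arrays outside the model carried an MTDH signal against their labels. The array labelled KO with estradiol 1 read 10.94, where the other KO arrays with estradiol read 8.49 and 8.49. The array labelled parental with estradiol 3 read 8.97, where the other parental arrays with estradiol read 10.83 and 10.96. The reason was not tested.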

How the results depend on the processing

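The 148 called differences were 237 after quantile normalization, 239 after centring, 28 at an adjusted p under 0.01, 1 with 12 arrays and 140 with no filter. With each array left out the count ran from 19 to 737. It was 19 without parental estradiol 2, 49 without parental estradiol 1, 42 without KO estradiol 2, 737 without KO estradiol 3, 40 without KO untreated 2, 34 without KO untreated 3, 258 without parental untreated 1, 47 without parental untreated 2 and 278 without parental untreated 3. For estradiol in KO cells, 1337 calls were 763 with 12 arrays, 802 with array weights and 583 at 0.01, and 799 to 1781 with an array left out (874, 799 and 805 without KO untreated 1, 2 and 3, and 843 without KO estradiol 2). For estradiol in parental cells, 2114 calls were 1376 with 12 arrays, 3861 with array weights and 933 at 0.01, and 680 to 3104 with an array left out (680 without parental estradiol 2, 926 without parental estradiol 1, 1178 without parental untreated 2). The mean response had 2829 calls, 1528 at 0.01 and 1730 to 3719 with an array left out (1768 without parental estradiol 2, 1730 without KO estradiol 3), and the mean line difference 4371 calls, 2180 with 12 arrays, 2802 at 0.01 and 3431 to 4848 with an array left out. Fits with an array left out also had fewer arrays, and their counts went up or down depending on the array. The cause of these shifts was not tested.

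The replicate block raised the 148 calls to 470, with all 148 kept, and the calls for estradiol in parental cells to 3195. In 12 arrays the replicate block gave 5 calls for the difference, 823 for estradiol in KO cells and 2603 for the mean line difference. Only 1 of 12 same-numbered pairs had a residual correlation above 0.1 (range −0.10 to 0.24), so the numbers are not shown to pair the samples.

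With 12 arrays, with or without the replicate block, 6 differences of genes named by the rule turned above 0: TNFRSF14 0.40, MUC5AC 0.79, FUT3 0.43, ADORA1 0.041, ENTPD2 0.63 and CFD 0.23. Among members named outside the rule, CLIC3, CAPS and RTN4R also turned above 0 with 12 arrays, and RASGRP1 turned below 0. With a share of 50% in place of 25%, the same 148 members held 5 weaker responses (16 at 25%) and 1 stronger one (4 at 25%). The 237 genes called after quantile normalization, a different set, held 33 weaker, 18 stronger, 81 gained and 6 unsorted responses, where the 148 held 16, 4, 32 and 1. The 1 gene called with 12 arrays was opposite in direction, and every other class held 0. The floor at the median plus 0.5 moved no class count by over 1.5 times. Single genes did change class behind these counts. By the class rules ALPK2 and TMTC1 then became floor-limited, while SLC6A6 and RAB7B left that class and were lost responses.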
